A study of Nematostella vectensis with 47 samples.

Results

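Described here are transcription start sites that CAGE-seq listed in GSK-treated and not in control gastrulae of the sea anemone *Nematostella vectensis*. All lay in DNA with little methylation in gastrulae of an untreated cross. A start site was a cluster of capped 5′ ends in either GSK library with no overlapping cluster on the same strand in either control library, and overlapping clusters were merged. It was kept where methylation of CpGs (mCG) within 500 bp of its centre was under 20% in untreated gastrulae. This gave 401 start sites, numbered GS1 to GS401 along the genome, of 12656 merged start sites in the 4 CAGE-seq libraries. A further 101 GSK-only start sites lay in methylated DNA, and 6 had no methylation level.

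The study asked what removal of gene body methylation does to gene regulation. Whole gastrulae of the Massachussets genotype were sampled at 25 hpf (hours post-fertilization) after culture in 5 µM GSK-3484862 (here GSK), an inhibitor of the maintenance methyltransferase DNMT1, or in 0.1% DMSO. CAGE-seq covered 2 GSK and 2 control libraries, the control ones labelled WT with no treatment but listed as DMSO in the study's supplement, so that a difference in vehicle cannot be told apart from GSK if the label holds. ATAC-seq covered 3 F0 GSK and 2 DMSO libraries, and RNA-seq covered 3 F0 GSK and 3 DMSO libraries. Untreated F1 gastrulae came from 2 lines bred from GSK-treated parents, each from a pair of low-methylated animals (F1 GSK), and 2 lines bred from parents injected with morpholinos against DNMT1 and UHRF1 (F1 MO), with 1 library per line and assay. Nanopore sequencing gave 1 library each of gastrulae from an untreated cross, sperm of a GSK-treated male, and gastrulae and a juvenile of a GSK by untreated cross. F0 GSK and DMSO embryos came from the same pools of zygotes, divided between the treatments. The CAGE-seq, ATAC-seq and RNA-seq libraries are bulk samples of whole embryos, so fewer cells with a transcript and less transcript per cell cannot be told apart.

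CAGE-seq reads the capped 5′ ends of RNA and is taken to mark where RNA polymerase II started. In *Nematostella*, as in many invertebrates, 5-methylcytosine sits mainly in the bodies of transcribed genes, whereas promoters are free of it and lie in accessible chromatin. DNMT1 copies methylation to the new DNA strand after replication, so blocking it dilutes methylation with each cell division. Methylation within 500 bp of these start sites was low by the rule, and its level in GSK-treated gastrulae was not examined here.

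Counts in ATAC-seq peaks summed to between 24059685 and 30494526 in the F0 GSK libraries, between 11366484 and 19253881 in the F1 GSK libraries, between 12525960 and 14046962 in the F1 MO libraries and between 31015826 and 33980509 in the DMSO libraries. RNA-seq counts ranged from 20823699 to 29358798 over the 10 libraries. The CAGE-seq files list 11999 and 11924 clusters in the GSK libraries and 11968 and 12018 in the control libraries, and the files do not give their read depth. The study's list of sequencing reads has more reads for each control library than for either GSK library, and the part of this in the GSK-only and control-only lists was not tested. The cluster value is a normalized signal on its own scale.

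The 401 start sites were narrow and their signal was low. Of these, 390 (97.3%) were 1 bp wide, as against 4.16% of the 11374 start sites that GSK and control libraries shared outside methylated DNA. The median of their mean signal was 24.9 (interquartile range 22.0 to 30.6), against 99.1 for the shared start sites. The lists themselves set a lower limit for such sites: the lowest signal of any 1-bp cluster was 20.2 and 20.1 in the GSK libraries and about 20 in both control libraries, whereas wider clusters reached down to 1.10 and 0.655 in the GSK libraries and to 0.142 and 0.126 in the control libraries. A 1-bp site below about 20 in a library is therefore not listed there. The highest signal of the start site was under 25 for 189 of the 401 and under 30 for 277, and 55 reached 40. The start sites were chosen by these CAGE-seq lists and by methylation in untreated gastrulae, so both are given as a description and were not tested.

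Replicate libraries often listed different start sites. Of the 401, 126 (31.4%) were listed in both GSK libraries, 145 in GSK replicate 1 only and 130 in GSK replicate 2 only. Those in both had a median signal of 29.7 in replicate 1 and 29.0 in replicate 2, and 67 of the 126 were higher in replicate 1. Those in 1 library had a median signal of 23.1. Neither replicate dominated, apart from the start sites in rRNA genes described below.

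**Figure D1:**
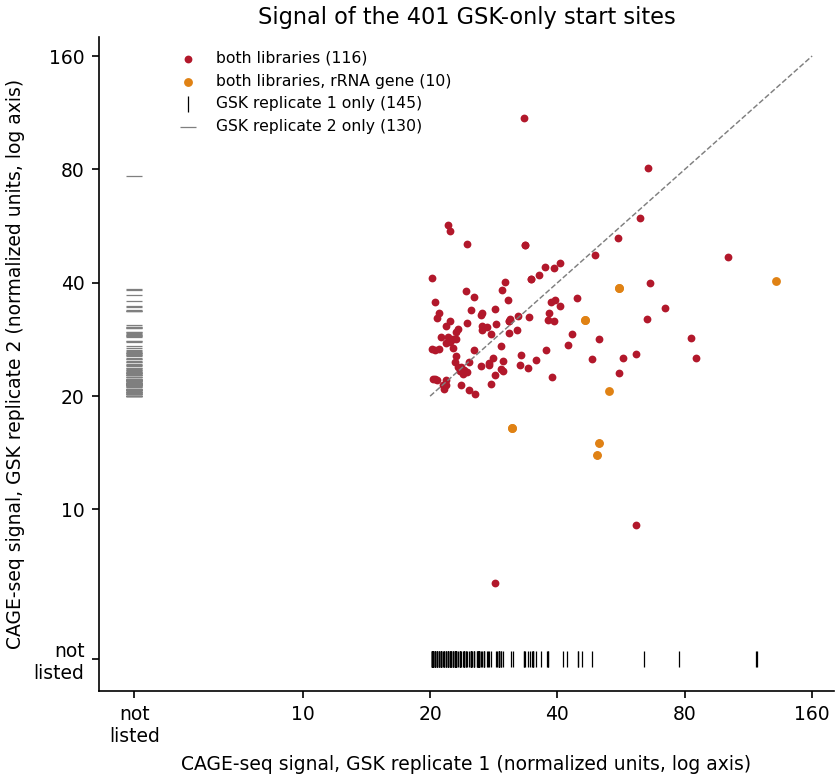
CAGE-seq signal (normalized units, log axes) of each of the 401 GSK-only start sites in GSK replicate 1 (x) and GSK replicate 2 (y). Points are the 126 listed in both libraries, ticks along the edges are the 145 and 130 listed in 1 library, and the dashed line marks equal signal. Most sites lie between 20 and 40, and the 10 in rRNA genes listed in both lie below the line.

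The reverse set had about the same size. There were 364 control-only start sites outside methylated DNA, of which 357 were 1 bp wide and whose median mean signal was 23.7. More of them were listed in both libraries of their condition, 189 (51.9%), than of the GSK-only ones. Among 1-bp start sites outside methylated DNA, the share not listed in the other condition fell with signal in both directions. It was 59.1% of 320 GSK sites and 64.7% of 292 control sites with a highest signal of 20 to 25, 40.2% of 164 GSK sites and 32.5% of 163 control sites from 30 to 40, and 24% of 175 GSK sites and 15.6% of 154 control sites from 40 to 80. At 80 or more, 7 of 53 GSK sites (13.2%) had no control counterpart, whereas 0 of 62 control sites lacked a GSK counterpart, which allows a share of up to 4.84%.

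**Figure D2:**
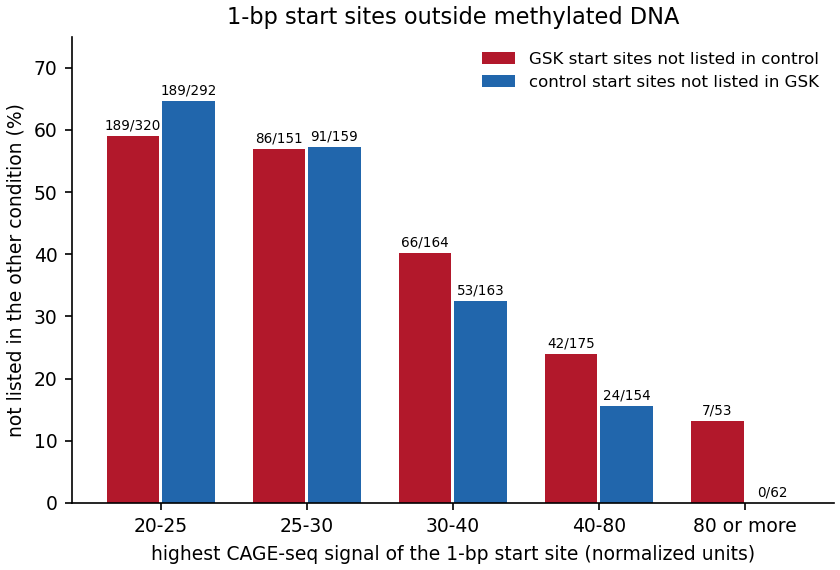
Share of 1-bp start sites outside methylated DNA that were not listed in the other condition (y, %), by their highest signal (x, normalized units), for GSK sites and control sites. Numbers above the bars are sites not listed over all sites. Both shares fell with signal, and the GSK share was above the control share from a signal of 30 upwards.

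The start sites of highest signal stood mostly inside or near genes (coordinates are on the jaNemVect1.1 assembly, from the files, and gene spans are from RefSeq). Offsets into a gene count from the end at which a transcript of the site's direction would begin, as the annotation gives no strand. The highest mean among those in both libraries belonged to GS313, a 16-bp cluster on the + strand at chr12:7648028-7648043 inside the rRNA gene LOC125557981, with 131.6 and 40.5 in the GSK libraries. GS329 (chr12:12552444, - strand) lay 527 bp into LOC5520614 and had 101.3 and 46.9. GS367 (chr14:9189637, + strand) lay 237 bp into LOC5509916 and had 65.6 and 80.5. These 3 differed between replicates in which library was higher.

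GS78 (chr3:5791904, - strand) lay 101 bp into LOC5512771, with 33.4 and 109.7. GS9 (chr1:6870045, - strand) lay 497 bp into LOC5519093, with 62.5 and 59.6. GS146 (chr5:10063779, + strand) lay 464 bp into LOC116613484, with 83.0 and 28.5. For GS9 the replicates differed little, while for GS78 and GS146 the higher library had about 3 times the signal of the other.

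GS160 (chr6:7200462, - strand) lay at an end of LOC116619643 and pointed away from it, with 85.2 and 25.3. A control start site on the same strand lay 41 bp away. GS44 (chr2:8485941, - strand) lay 55 bp into LOC5516770, with 55.6 and 52.6. The reference names none of these genes beyond the identifier. All of them are protein-coding except the rRNA gene. Among start sites listed in 1 library only, the highest signals were 118.3 for GS326 and 118.1 for GS325 in GSK replicate 1, at offsets of -482 and -428 bp from the ends of LOC116603955 and LOC116605277 (negative values lie before the gene), and both were chosen for mention after their values were seen.

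A ribosomal RNA gene held or adjoined 26 of the start sites (6.48%), over 23 genes on 8 chromosomes. Ribosomal RNA genes are repeated, nearly identical units that RNA polymerase II does not read. The authors kept uniquely mapped CAGE-seq reads, but which of several near-identical copies a tag came from remains uncertain. Whether the signals at these 26 mark starts of RNA polymerase II was not tested. Of the 26, 15 were listed in GSK replicate 1 only and 1 in GSK replicate 2 only, and the 10 in both were all higher in replicate 1, whereas 57 of the other 116 in both were. In GSK replicate 1, 10 of 25 shared their exact signal with another of them. Exact ties were not counted among the other start sites, so nothing is read from this number. Of the 11 start sites wider than 1 bp, 10 lay within 10 kb of an rRNA gene, and the other, GS395, was a 21-bp cluster in LOC5509992. Centres inside rRNA genes made up 25 of the 401 (6.23%) and 10 of the 364 control-only start sites (2.75%).

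Position relative to genes was not used by the rule. The annotation used here gives no strand, so a start site was called as pointing into a gene where it lay from 500 bp before to 200 bp inside the gene end at which a transcript of that direction would begin. By this measure 177 of the 401 (44.1%, 95% Wilson interval 39.4 to 49.0) stood at a gene end pointing in, 159 (39.7%) in a gene body, 28 (6.98%) at a gene end pointing out and 37 (9.23%) between genes. Of the 37, the nearest gene lay 549 to 16014 bp away, with a median of 1755 bp. The share at a gene end pointing in was 52.5% (47.3 to 57.6) of control-only start sites, 61.9% (57.5 to 66.2) of the 473 shared start sites of 1 bp, 76.1% (75.4 to 76.9) of all shared ones and 5 of 101 (4.95%) of the GSK-only start sites in methylated DNA. The share among the GSK-only sites was 51.2% without GSK replicate 1 and 37.6% without GSK replicate 2, a range wider than the gap to the control-only sites. The intervals cover counting error only and take sites as independent.

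The 177 at gene ends lay close to the annotated end. Their median offset was 36 bp into the gene, 84 lay within 50 bp of it and 132 within 100 bp, and 148 were downstream of it. They belonged to 173 genes, and 160 of the 177 were at protein-coding genes, 12 at lncRNA genes, 3 at snoRNA genes and 2 at pseudogenes. The control libraries listed another start of the same direction at the gene end for 72 of the 177 and none for 105. Of the 191 control-only start sites at gene ends, 49 had a GSK start site at the same end and 142 had none. Of the 159 in gene bodies, 65 lay within 1000 bp of the end at which a transcript of their direction would begin. Sense and antisense starts in gene bodies cannot be told apart without the gene's strand.

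Some of the start sites stood close to a start that the control libraries listed. On the same strand, 107 of the 401 (26.7%) lay within 100 bp of a control start site, at a median of 30 bp, with 78 downstream of it and 29 upstream. Of these control neighbours, 101 were listed in all 4 libraries. Their median signals were 132.1 and 146.3 in the GSK libraries and 91.6 and 88.9 in the control libraries, and 68 of the 101 were higher in GSK, with a median log2 ratio of 0.40. The 11477 start sites listed in all 4 libraries had a median log2 ratio of -0.20, and 40.7% were higher in GSK. The neighbours of control-only start sites ran the other way, with a median log2 ratio of -0.82 and 10 of 74 higher in GSK. These signals come from the libraries that chose the sites and were not tested.

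Most of these sites lay in accessible DNA, which ATAC-seq marks by transposase insertion. A peak, merged by the authors over libraries, overlapped 287 of the 401 (71.6%, 67.0 to 75.8). The share was 73.1% (68.3 to 77.4) of control-only start sites, 83.1% (79.4 to 86.2) of shared 1-bp sites, 94.0% (93.5 to 94.4) of all shared sites and 37.6% (28.8 to 47.4) of GSK-only sites in methylated DNA. Among the 401 it was 87.0% (81.3 to 91.2) at gene ends pointing in, 60.4% (52.6 to 67.6) in gene bodies and 51.4% (35.9 to 66.6) between genes. Only 2 of the 26 in rRNA genes had a peak. Start sites listed in both GSK libraries and in 1 library had peaks at 71.4% and 71.6%.

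**Figure D3:**
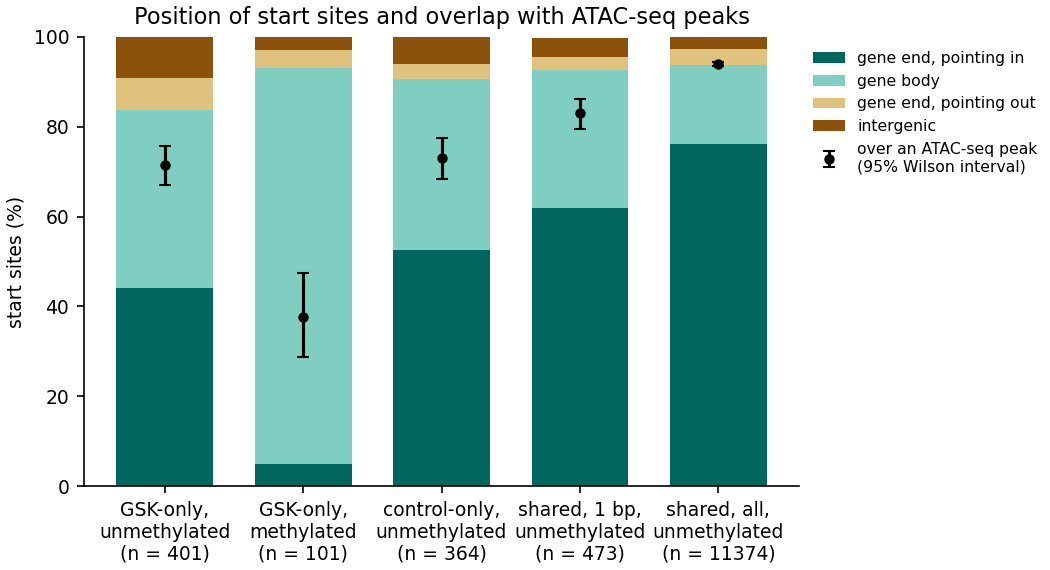
Share of start sites (y, %) at a gene end pointing in, in a gene body, at a gene end pointing out and between genes, for 5 classes of start sites. Black points give the share over an ATAC-seq peak with its 95% Wilson interval. The GSK-only sites outside methylated DNA stood at gene ends in 44.1% and over peaks in 71.6%, against 4.95% and 37.6% for GSK-only sites in methylated DNA.

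In each of the 9 ATAC-seq libraries, DMSO included, the median level of the peaks at these start sites was above that of the peaks at shared start sites. The median level was 33.1, 36.8 and 37.0 CPM (counts scaled to a common library total after TMM scaling) per kb in F0 GSK replicates 1, 2 and 3, 33.5 and 35.6 in the F1 GSK libraries, 39.7 and 42.8 in the F1 MO libraries, and 36.1 and 37.8 in the DMSO libraries. Peaks at shared start sites had medians of 31.2, 32.6 and 33.2 in F0 GSK, against 33.7 and 34.6 in DMSO. Peaks of GSK-only start sites in methylated DNA had 30.7, 31.1 and 32.2 in F0 GSK, against 19.1 and 17.8 in DMSO. The F0 GSK and DMSO ranges thus overlapped for the GSK-only sites outside methylated DNA and did not for those inside it.

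Across all 36284 peaks, edgeR's quasi-likelihood test called 1.44% more accessible and 0.229% less accessible in F0 GSK than in DMSO gastrulae at an FDR under 0.01. The 401 start sites lay over 275 different peaks, all tested, of which 1 was called more accessible (0.364%). None was called less accessible, and DESeq2 also called 1 and 0, where it called 1.84% and 0.273% of all peaks. At an unadjusted edgeR p under 0.05, 9 peaks were more accessible and 8 less accessible, where 7.59% and 4% of all peaks were. The median log2 fold change was -0.05, against -0.00 over all peaks. Peaks at shared start sites outside methylated DNA were alike: 26 of 8062 were called more accessible (0.32%) and 31 less, with a median of -0.07. At shared 1-bp sites 1 of 381 was called more accessible (0.26%) and 2 less, with a median of -0.08. Of the 38 peaks at GSK-only start sites in methylated DNA, 16 were called more accessible, with a median log2 fold change of 0.56. Of 259 peaks at control-only start sites, 4 were called less accessible and 0 more accessible by edgeR and by DESeq2, with 29 less and 6 more accessible at an unadjusted p under 0.05.

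The peak that opened stood at GS91 (chr3:12842127, + strand, 21.8 in GSK replicate 2 only), 147 bp into the lncRNA gene LOC116602223 and 28 bp from a start site listed at 12.1 and 28.2 in the GSK libraries and at 0.508 in 1 control library. The level of its peak (chr3:12841758-12843053) was 23.4, 29.4 and 21.9 CPM in F0 GSK, 14.8 and 13.3 CPM in F1 GSK, 7.11 and 22.7 CPM in F1 MO and 13.1 and 13.6 CPM in DMSO. All 3 F0 GSK libraries were above both DMSO libraries, whereas the F1 GSK libraries overlapped them. The log2 fold change in F0 GSK was 0.90 (SE 0.20, edgeR adjusted p = 0.0041). The call was lost without DMSO replicate 1 (adjusted p = 0.128), DMSO replicate 2 (0.0902) or F0 GSK replicate 2 (0.0615), and in an edgeR fit over all groups (adjusted p = 1).

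The peaks at the other named start sites were not called. The peak over GS44 had 51.2, 50.1 and 50.4 CPM in F0 GSK against 34.8 and 47.6 CPM in DMSO, a log2 fold change of 0.30 (edgeR adjusted p = 0.436). The peak over GS367 had 36.8, 65.2 and 56.0 CPM in F0 GSK against 49.3 and 48.7 CPM in DMSO. The peak over GS265, at the start of LOC5512516, had 25.4, 20.9 and 25.5 CPM in F0 GSK against 38.3 and 34.1 CPM in DMSO, a log2 fold change of -0.59 (adjusted p = 0.0314, short of the threshold). For GS367 the groups overlapped, and for GS44 and GS265 they did not.

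Few of the genes at these start sites passed the test in RNA-seq. The GSK CAGE-seq libraries were made from RNA of 2 of the GSK RNA-seq libraries, so the RNA-seq comparison is not wholly independent of the rule. Of 16654 genes tested with edgeR, 0.24% were higher and 0.991% lower in F0 GSK than in DMSO gastrulae at an FDR under 0.01. Start sites at gene ends pointing in belonged to 157 protein-coding genes, all tested, of which 1 was higher (0.637%) and 0 were lower. DESeq2 called 3 higher and 6 lower, where it called 1.68% and 3.86% of all genes. With the replicate number as a block, edgeR called 0 higher and 0 lower. At an unadjusted edgeR p under 0.05, 13 were higher and 8 lower, where 8.74% and 11.1% of all genes were. The median log2 fold change was 0.10 (interquartile range -0.12 to 0.31), against -0.00 over all genes, and 95 of the 157 were above 0. At the 178 genes of control-only start sites the median was -0.10, with 0 higher and 5 lower by edgeR. There DESeq2 called 3 higher and 21 lower, and 40 genes were lower and 10 higher at an unadjusted p under 0.05.

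RNA of genes without a control start at the same end was present in DMSO embryos all the same. There were 90 protein-coding genes at whose end CAGE-seq listed a GSK-only start site and no control start of that direction. Of these, 89 had at least 1 CPM in every F0 GSK RNA-seq library and 88 in every DMSO library. Of the 67 genes with a control start at the same end, 67 and 66 did. The share over all genes was not computed. The GSK counts follow in part from the rule, as GSK CAGE-seq and RNA-seq shared RNA. None of the 90 genes had 0 counts in all 3 DMSO libraries. Their median log2 fold change was 0.10, and that of the 67 genes with a control start at the same end was also 0.10.

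The gene called higher was LOC5516770 (chr2:8483899-8485996), at GS44. It had 25.5, 30.7 and 22.9 CPM in F0 GSK against 11.2, 12.5 and 12.5 CPM in DMSO. Every F0 GSK library was above every DMSO library, with a log2 fold change of 1.13 (SE 0.16, edgeR adjusted p = 0.0087). The adjusted p was over 0.01 without any of the 3 F0 GSK libraries or without DMSO replicate 1 (0.0269 to 0.0428), and it was 0.0527 without DMSO replicate 2 and 0.192 in a fit over all groups. With a replicate block it was 0.0769. Its level was 12.1 and 2.24 CPM in F1 GSK and 6.56 and 12.1 CPM in F1 MO, none of which reached the F0 GSK range.

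Among the other genes named by the size of their change, none passed the threshold in edgeR. LOC125559141 (GS341) had 1.92, 2.58 and 1.14 CPM in F0 GSK against 0.956, 0.719 and 0.861 CPM in DMSO, a log2 fold change of 1.15. LOC5508769 (GS56) had 13.6, 11.1 and 8.91 CPM in F0 GSK against 6.87, 4.55 and 5.07 CPM in DMSO, and LOC5518595 (GS344) had 16.1, 13.6 and 14.7 CPM against 8.96, 9.10 and 5.98 CPM. In these 3 genes the groups did not overlap, and LOC5508769 and LOC5518595 passed the threshold in DESeq2 (adjusted p = 0.0024 and 0.0023). LOC5508257 (GS385) had 31.2, 59.5 and 49.7 CPM in F0 GSK against 36.8, 28.0 and 21.7 CPM in DMSO, and the groups overlapped.

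At the other end, LOC5516143 (GS127) had 16.6, 11.1 and 13.1 CPM in F0 GSK against 28.0, 34.5 and 27.2 CPM in DMSO, a log2 fold change of -1.13 (adjusted p = 0.0177 in edgeR and 9.7e-06 in DESeq2). Its start was listed in GSK replicate 1 alone. LOC5511268 (GS81) had 8.70, 15.1 and 12.8 CPM in F0 GSK against 23.3, 25.0 and 20.3 CPM in DMSO (DESeq2 adjusted p = 0.0042). LOC5512516 (GS265) had 17.6, 16.4 and 18.3 CPM in F0 GSK against 39.9, 30.1 and 26.5 CPM in DMSO (DESeq2 adjusted p = 0.00061). In each of these genes CAGE-seq listed a start in a GSK library that no control cluster overlapped, while RNA-seq was lower in all 3 F0 GSK libraries. The rule does not exclude another control start at the same gene end.

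LOC5521644 (GS49) had 34.4, 37.6 and 30.1 CPM in F0 GSK against 51.5, 48.4 and 63.3 CPM in DMSO, with no overlap (DESeq2 adjusted p = 0.0039). LOC5520534 (GS327) had 2.94, 2.92 and 2.72 CPM in F0 GSK against 7.13, 5.99 and 1.58 CPM in DMSO, and the groups overlapped. For the start sites of highest signal that stood in gene bodies, RNA-seq of the gene did not follow in 1 direction: the log2 fold change was -1.23 for LOC5519093 (GS9), 0.11 for LOC5520614 (GS329), 0.52 for LOC116613484 (GS146) and 0.52 for LOC5509916 (GS367), and none was called.

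**Figure D4:**
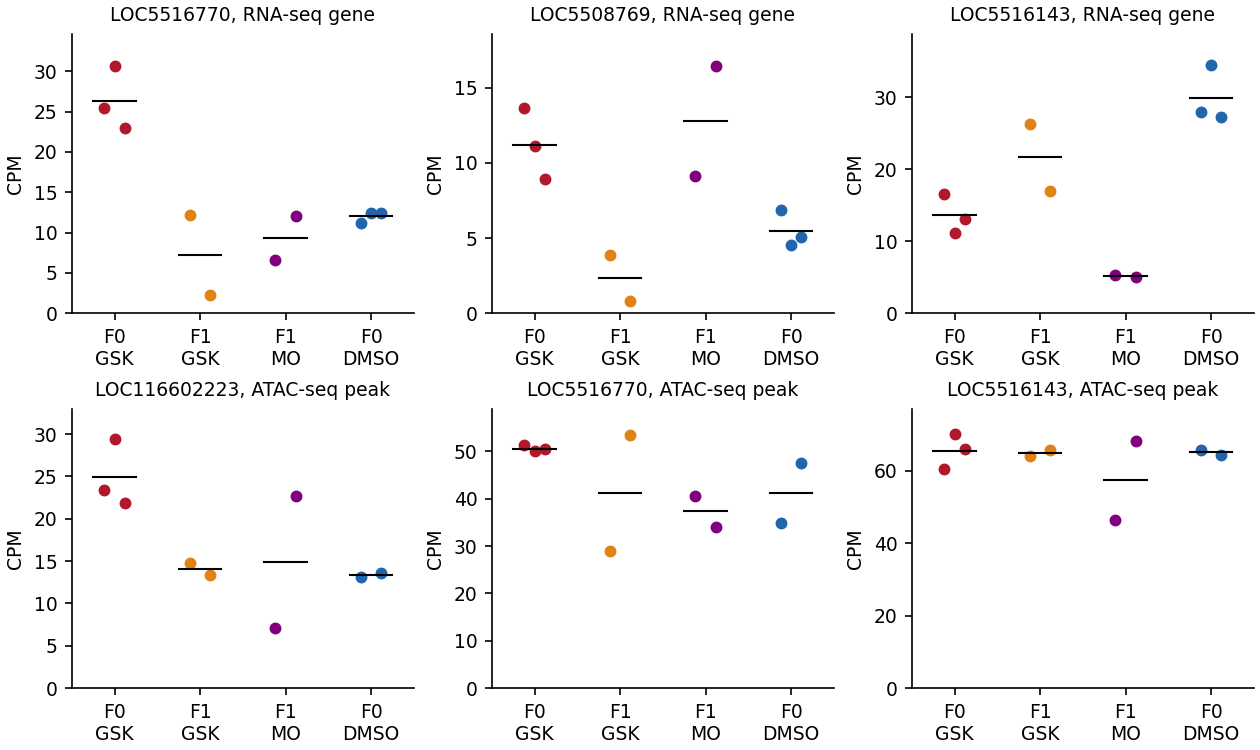
Level (y, CPM) of 3 genes in RNA-seq (top row) and of 3 ATAC-seq peaks (bottom row) in each library of F0 GSK, F1 GSK, F1 MO and F0 DMSO gastrulae. Points are libraries and bars are means. LOC5516770 RNA and the LOC116602223 peak were higher in all F0 GSK libraries than in DMSO, whereas LOC5516143 RNA was lower with its peak at 60.4 to 70.2 CPM in F0 GSK and 64.3 to 65.8 CPM in DMSO.

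Start sites in gene bodies touched 125 protein-coding genes, of which 124 were tested in F0. By edgeR 0 were higher and 1 was lower, and at an unadjusted p under 0.05 there were 20 higher and 6 lower, where 8.74% and 11.1% of all genes were. DESeq2 called 4 higher and 1 lower, where it called 1.68% and 3.86% of all genes. Genes with a shared start site outside methylated DNA in the body had 172 higher and 118 lower of 1489 at an unadjusted edgeR p under 0.05. For shared 1-bp sites it was 19 and 9 of 128, and for control-only sites 8 and 15 of 114. The gene that edgeR called lower at GSK-only sites was LOC5507961 (GS232), chosen for mention after its value was seen. It had 6.45, 6.78 and 5.42 CPM in F0 GSK against 17.9, 20.4 and 23.4 CPM in DMSO (log2 fold change -1.72, SE 0.18, edgeR adjusted p = 0.0038). Its start site lay 3957 bp inside the gene, and the call was not recomputed with libraries left out.

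In the F1 generation, edgeR made 1 call among the start sites' peaks and the genes at gene ends, and DESeq2 made more. The F1 comparisons use the same DMSO libraries as the F0 ones, so they are not independent of them, and generation, line and treatment of the parents cannot be told apart. For F1 GSK, edgeR called 0% of all peaks and 0% of all genes in either direction, and hence none at these start sites. At an unadjusted p under 0.05, 9 of the 275 peaks were more and 27 less accessible (4.92% and 4.4% over all peaks), and 2 of the 157 genes were higher and 15 lower (4.99% and 5.86% over all genes). DESeq2 called 1 peak more accessible, 0 less accessible, 0 genes higher and 3 genes lower, where it called 0.187% and 0.0606% of all peaks and 0.502% and 0.783% of all genes. The median log2 fold change was -0.10 for the peaks, against 0.03 over all peaks, and -0.12 for the genes, against -0.00 over all genes. Peaks at other start sites outside methylated DNA also leaned to less accessible at an unadjusted edgeR p under 0.05. There were 10 more and 27 less accessible of 259 at control-only sites, and 276 and 519 of 8062 at shared sites.

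For F1 MO, edgeR called 0% of all peaks in either direction, 0.0955% of genes higher and 0.472% lower. At an unadjusted p under 0.05, 27 of the 275 peaks were more and 6 less accessible (5.6% and 13% over all peaks), while DESeq2 called 33 and 6 (6.18% and 12.1% over all peaks). Other start sites outside methylated DNA leaned the same way at that unadjusted edgeR p. Of 8062 peaks at shared sites 680 were more and 195 less accessible (DESeq2 745 and 122). Of 259 at control-only sites 27 were more and 8 less accessible (DESeq2 29 and 4). The 2 F1 MO ATAC-seq libraries were among the shallowest and differed from each other, as at the LOC116602223 peak. Of the 157 genes, 0 were higher and 1 was lower by edgeR. At an unadjusted p under 0.05, 22 were higher and 30 lower (12.4% and 15.4% over all genes), and DESeq2 called 8 higher and 14 lower (3.48% and 5.54% over all genes). With a replicate block edgeR called 10 higher and 18 lower. The lower gene was LOC5516143, with 5.34 and 5.02 CPM in F1 MO against 28.0, 34.5 and 27.2 CPM in DMSO (log2 fold change -2.52, SE 0.21, edgeR adjusted p = 0.0039). The count of lower genes was 0 without either F1 MO library or without DMSO replicate 1 or 2, and 8 when DMSO replicate 3 was left out. The median log2 fold change of the 157 genes was 0.05, against 0.00 over all genes.

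Methylation around the start sites was far under the limit of the rule. The median mCG within 500 bp was 0.129%, 362 of the 401 were under 1%, 19 were from 1% to 5%, 15 from 5% to 10% and 5 from 10% to 20%. Each level rests on at least 45 valid calls, with a median of 1466. The highest levels inside the limit were 18.9% at GS224 (chr8:11305320, LOC125570190), 16.6% at GS250 (chr9:12970235, LOC5506811) and 15.4% at GS307 (chr12:6991681, LOC5510121). The lowest outside it were 22.0% in LOC5521678 (chr2:13663081), 22.1% in LOC5501259 (chr1:3365743) and 22.9% in LOC5505694 (chr2:4979458). No start site fell between 18.9% and 22.0%, so the limit cut through a sparse range. The sites had a median of 40 listed CpGs per window. Control-only start sites had 40, shared ones 38 and GSK-only start sites in methylated DNA 18.

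The low level was also found in Nanopore libraries that the rule did not use. The median was 0.143% in sperm of the GSK-treated male, 0.0597% in gastrulae of the GSK by untreated cross and 0.0440% in its juvenile, each over 399 start sites. There is 1 library of each, so these values have no replicate error. The 39 start sites from 1% upwards were picked by their level in the untreated cross. A higher median there follows in part from that choice, so no change is read from it. The median of these 39 was 5.25% in the untreated cross, 1.24% in the sperm, 2.60% in the F1 gastrulae and 2.17% in the juvenile. A single start site was above 20% in any of them: GS5 (chr1:3375795) in LOC5501260 had 22.6% in the juvenile from 1052 calls, 2.1% in the F1 gastrulae, 0.125% in the sperm and 4.62% in the untreated cross.

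Beyond 500 bp, which the rule did not read, methylation was lower around these start sites than around shared ones. In untreated gastrulae the mean over sites was 24.8% from 1000 to 1200 bp downstream and 30.3% from 1800 to 2000 bp downstream, against 37.2% for control-only and 60.5% for shared start sites at 1800 to 2000 bp. Upstream it was 16.2% from 1600 to 1800 bp, against 22.5% for control-only and 31.9% for shared start sites. In the sperm of the GSK-treated male the mean from 1800 to 2000 bp downstream of the GSK-only sites was 23.5%, in the F1 gastrulae 25.7% and in the juvenile 25.1%. In each library and class the mean from 600 bp outwards was higher downstream than at the same distance upstream. The classes differed in position and width. Of the 401, 44.1% stood at a gene end pointing in and 97.3% were 1 bp wide, against 76.1% and 4.16% of shared sites. Shared 1-bp sites were not profiled, and the part of position and width in the gap was not tested.

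**Figure D5:**
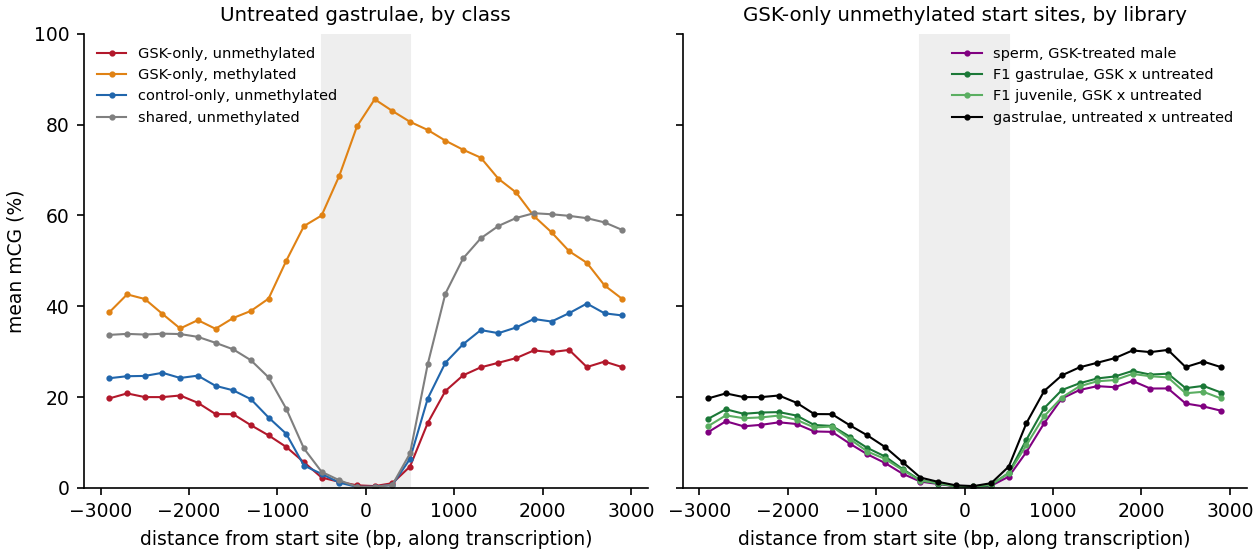
Mean mCG (y, %) in 200-bp bins by distance along the direction of transcription (x, bp), in untreated gastrulae for 4 classes of start sites (left) and in 4 Nanopore libraries for the 401 GSK-only sites outside methylated DNA (right). Each point is a mean over the sites with a CpG in the bin, and grey marks the 500 bp used by the rule. From 1800 to 2000 bp downstream the mean was 30.3% for the 401 sites, 37.2% for control-only sites and 60.5% for shared sites.

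The share of body-methylated genes was lower at these start sites than at all shared ones, while its interval overlapped those of control-only and shared 1-bp sites. Of the 157 protein-coding genes with a start site at the end pointing in, 81 (51.6%, 43.8 to 59.3) had at least 10% mCG over the gene body in untreated gastrulae, with a median of 11.1%. The share was 59.6% (52.2 to 66.5) at control-only start sites, 62.4% (56.5 to 67.9) at shared 1-bp sites and 79.2% (78.3 to 80.03) at all shared sites, and 48.3% of all 18807 protein-coding genes with a level. For start sites in gene bodies it was 40% (31.8 to 48.8) of 125 genes, against 76 of 78 genes (97.4%, 91.1 to 99.3) for GSK-only start sites in methylated DNA. In gene bodies the window of the rule is part of the gene, so that gap follows in part from the rule and nothing is read from it. LOC5516770, the gene called higher in F0 GSK, had 10.2% mCG over its body, and LOC5516143, the gene lower in F1 MO, had 58.4%.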

How the data were processed

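CAGE-seq, ATAC-seq, RNA-seq and Nanopore files were used. The deposited CAGE-seq value is a signal per cluster, which the authors normalized by a power law in CAGEr and filtered by thresholds not given in the sources used here. The deposited RNA-seq and ATAC-seq values are counts per gene and per merged peak, not scaled by the authors, and for Nanopore the authors deposited, per CpG, counts of all valid calls and of 5mC calls. The submitters' processing notes name Trim Galore 0.6.7 and cutadapt 4.6.

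CpGs needed 10 valid calls, and windows 3 such CpGs. The quasi-likelihood test of edgeR 4.0.16 (R 4.3.3) was run on the counts of the 2 compared groups, with TMM scaling, filterByExpr and Benjamini-Hochberg adjustment over the whole table (FDR 0.01) and, as an alternative, DESeq2 1.42.0. A peak belonged to a start site from 1 bp of overlap. The edgeR fit, the overlap and merging of clusters and the sums of calls were tested on simulated data (Python 3.11.15, numpy 2.4.6, pandas 2.3.3). Gene spans came from RefSeq (jaNemVect1.1), on whose numbered chromosomes 19206 of 19231 RNA-seq gene identifiers were found. That table gives no strand and no product names, so gene ends replaced the planned strand-matched starts, and the planned gene lists and cell type markers were not used. Sequences and motifs were not analysed here. Of the per-sample columns, 0 were left unused.

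The start sites and tests were chosen with earlier results of these data known. Named by rule were the 8 start sites of highest mean signal in both GSK libraries, those with a called gene or peak, the 3 levels on each side of the methylation limit and the 5 largest and 5 smallest RNA-seq log2 fold changes at gene ends with at least 1 CPM in the higher group. Replicates are separate libraries, and p-values measure the spread between them. Alternatives were other tools, scalings and filters, a replicate block, leaving out libraries, and other limits in the rule.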

Additional observations from a re-analysis of the deposited data

How the results depend on the processing

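The 401 start sites became 126 where both GSK libraries had to list them and 55, as an alternative chosen after seeing the data, with a signal of at least 40. They numbered 256 to 468 with a CAGE-seq library left out, the fewest without GSK replicate 1. The share at gene ends (44.1%) was 37.1% with sites within 100 bp of a control site taken as shared, 29.1% from a signal of 40, and 37.6% to 51.2% with a library left out. The share over peaks (71.6%) was 65.6%, 56.4% and 69.4% to 73.8% under these settings, and 75.8% without sites inside rRNA genes, also chosen after seeing the data.

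Of F0 GSK peaks, 1 and 0 were more and less accessible. All groups in 1 fit gave 0 more accessible and FDR 0.05 gave 1 less accessible, and leaving out libraries gave 0 to 3 and 0 to 1 (3 and 1 without F0 GSK replicate 1). Of F0 GSK genes, 1 and 0 were higher and lower: DESeq2 gave 3 and 6, all groups in 1 fit gave 0 higher, FDR 0.05 gave 3 lower, and leaving out libraries gave 0 to 1 and 0 to 2 (2 without DMSO replicate 3). In F1 GSK, DESeq2 gave 1 peak more accessible and 3 genes lower, and with 1 library left out 0 to 39 peaks were more and 0 to 59 less accessible, all of these calls without an F1 GSK library. In F1 MO, DESeq2 gave 33 peaks more and 6 less accessible and 8 genes higher and 14 lower. Leaving out libraries gave 0 to 100 and 0 to 57 peaks (all of these calls without an F1 MO library) and 0 to 3 and 0 to 8 genes (most without DMSO replicate 3). For F1 GSK genes it gave 0 to 0 in both directions. Where this left a single library in a group, that library was assumed to vary like the other group. For the 11 named genes and peaks, 110 alternative values kept their direction and side of the threshold, 11 passed it and 11 lost it, with no change of direction. The cause of these differences was not tested.

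F0 GSK and DMSO embryos came from divided zygote pools, but the labels do not say that a replicate number marks a pool, and the numbers did not pair the libraries in the data: deviations of same-numbered RNA-seq libraries of F0 GSK and DMSO had correlations of -0.55, -0.12 and -0.42, and in ATAC-seq 0.04 and 0.01. With a replicate block, 0 genes were higher in F0 GSK, 1 peak was more accessible in F1 GSK, and 10 genes were higher and 18 lower in F1 MO. The adjusted p of LOC5516770 was 0.0769. The block moved no other count of calls.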

Other observations

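Outside protein-coding and rRNA genes, 21 of the 401 start sites were at lncRNA genes, 6 at pseudogenes and 3 at snoRNA genes, as against 17, 1 and 0 of the 364 control-only start sites. The snoRNA gene LOC116611560, of a class of small RNAs that guide chemical modification of other RNAs, had GS372 with 48.4 and 25.2 in the GSK libraries, 269 bp before it. The other 2 snoRNA genes, LOC125570831 and LOC116620318, had start sites of equal signal (20.9) in GSK replicate 2 only. Nothing is read from that tie either, as ties were not counted over all start sites. On the opposite strand, a control start site lay within 100 bp of 22 of the 401 (5.49%) and 856 of the shared ones (7.53%). Of the 364 control-only start sites, 10 (2.75%) had a GSK start site within 100 bp on the opposite strand. These were chosen for mention after their values were seen.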
